A study of Mus musculus with 2 samples.

Results

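Cycling tumour-associated macrophages (TAMs) were the cells that the deposited cell table names TAM_cycling, and there were 1050 of them among 7815 CD45+ cells of both libraries. In the NTT library 103 of 2975 cells carried this name (3.46%, 95% interval 2.83 to 4.18), and in the RTT library 947 of 4840 did (19.6%, 18.5 to 20.7). Single-cell RNA sequencing was done on live CD45+ leukocytes sorted from subcutaneous tumours of YUMM3.3, a mouse melanoma line that carries Braf V600E and lacks Cdkn2a, grown in C57BL/6 mice. NTT tumours came from the line that had never met targeted therapy. RTT tumours came from its derivative that is resistant to BRAF inhibition and was kept in dabrafenib, a BRAF inhibitor, in culture. The record gives day 12 after injection for both tumours, whereas the methods of the study give another day for their single-cell experiments. Each group was 1 tumour and 1 library, so that the tumour line and the single mouse, sort and library behind it cannot be told apart, and no test between the libraries was possible.

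Macrophages can renew themselves in tissues and tumours by dividing, alongside the recruitment of monocytes from blood. Dividing cells license and copy their DNA in S phase with the MCM helicase, the replication fork proteins and the enzymes that make nucleotides. In G2 and M phase they build kinetochores and a spindle under the control of CDK1 with cyclins A and B. E2F factors drive the first wave of these genes, and the MYB-MuvB complex with FOXM1 drives the second. Promoters of the second wave often hold elements called the CHR and the CCAAT box. A cluster of dividing cells is named for these genes, which leaves unsaid what kind of macrophage each cell is.

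Members of the population were deeper than the macrophages around them. The median TAM_cycling cell held 18157 UMIs (unique molecular identifiers, 1 per captured transcript) in NTT and 12029 in RTT. These medians were 2.59 and 1.48 times those of the other macrophages of the same library. Levels are therefore given as counts per 1000000 UMIs of the population (CPM), and shares of cells with a UMI and phase calls were taken after each cell had been thinned at random to 3000 UMIs. The summed depth was 1898219 UMIs in NTT and 12184579 in RTT, so NTT values carry the wider intervals. All intervals are 95% intervals that cover counting error only, not the difference between tumours. They are exact, except for those of differences of shares, which are approximate. Both libraries shared 7 cell barcodes, 1 of them within TAM_cycling.

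The population held its naming markers in both libraries. Mki67, a coat protein of mitotic chromosomes, measured 357 CPM (330 to 385) in NTT and 497 CPM (484 to 509) in RTT TAM_cycling, against 20.9 and 21.5 CPM in the other macrophages. Top2a, the topoisomerase that untangles sister DNA, measured 485 CPM in NTT and 582 CPM in RTT, against 10.6 and 25.1 CPM in the others. Cdk1, the kinase that starts mitosis, measured 151 CPM in NTT and 168 CPM in RTT, against 6.89 and 11.7 CPM. Pclaf, a PCNA-binding protein of the replication fork, measured 514 CPM in NTT and 589 CPM in RTT, against 14.0 and 21.4 CPM. All 4 markers were thus far higher in TAM_cycling than in the rest, a difference that is built into the naming of the cluster, and slightly higher in RTT than in NTT, with the interval of the log2 ratio for Cdk1 spanning 0 (0.15, -0.03 to 0.33). Among other macrophages the highest marker levels were in RTT Ctsk_Macro cells, with 75.7 CPM of Mki67 and 119.5 CPM of Top2a.

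**Figure D1:**
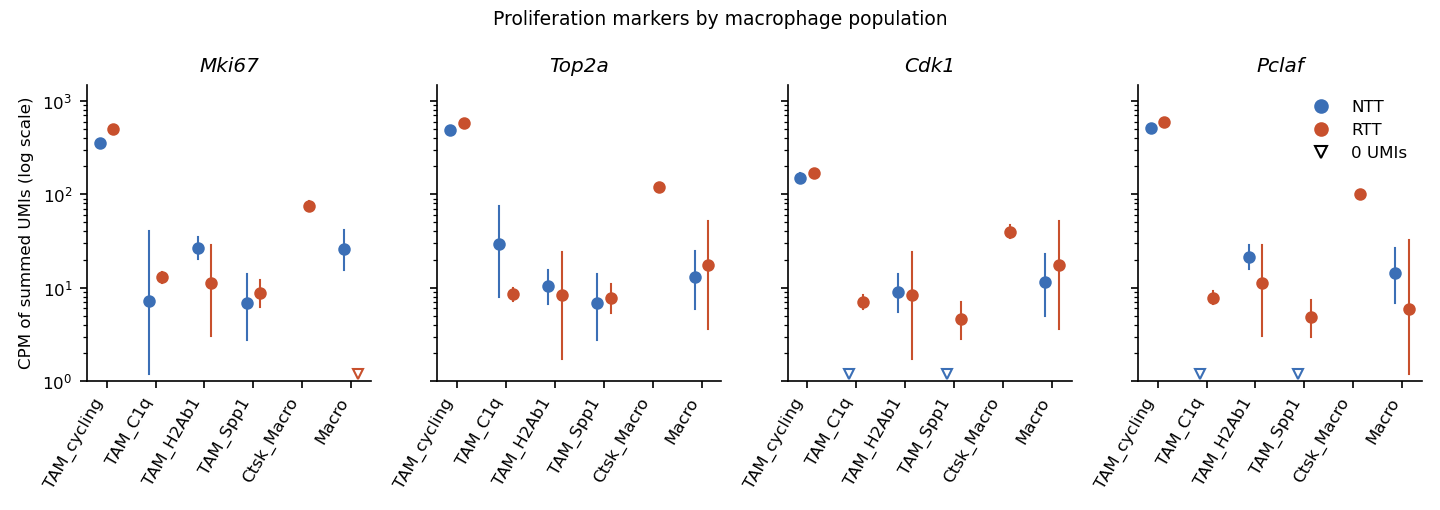
CPM (log axis) of the 4 naming markers in each macrophage population, with NTT in blue, RTT in orange-red, bars for exact 95% Poisson intervals and open triangles for populations with 0 UMIs. TAM_cycling stands above every other macrophage population in both libraries, with Mki67 at 357 CPM in NTT and 497 CPM in RTT.

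The markers did not mark every cell. After thinning, Mki67 was seen in 46.1% of NTT and 48.8% of RTT TAM_cycling cells, and in 2.21% of RTT TAM_Spp1 cells. All 4 markers were present, without thinning, in 46 NTT cells (44.7%) and 433 RTT cells (45.7%), while 7 NTT cells (6.80%) and 128 RTT cells (13.5%) had a UMI of none. The RTT cells were shallower, and the part of depth in the last 2 shares was not tested. Cells with none of the 4 were mostly called S phase, 6 of 7 in NTT and 110 of 128 in RTT, and 0 of them were called G2/M. The G2/M score is built from genes of the same kind as the markers. Cells chosen for lacking them score low in G2/M for that reason alone, so these calls are a description. They held the replication helicase subunits Mcm3 (410.0 CPM in NTT, 282 CPM in RTT) and Mcm6 (239.8 CPM and 229 CPM), and the G1 cyclin Ccnd1 (779 CPM and 537 CPM). RTT cells with all 4 markers held less Mcm3 (244 CPM) and Mcm6 (192 CPM). Other S phase genes were lower in RTT cells with none than with all 4. Pcna measured 170 against 371 CPM, Ccne2 6.76 against 63.3 CPM and Mcm5 140 against 163 CPM. In NTT Pcna measured 340 against 455 CPM and Ccne2 0 against 25.9 CPM.

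Nearly all members were called in S or G2/M phase. A cell was called by the higher of 2 scores, each the mean of a published list of S or G2/M genes against control genes of like level, and as G1 where neither was above 0. In NTT 64 of 102 cells were in S (62.7%, 52.6 to 72.1), 35 in G2/M (34.3%) and 3 in G1 (2.94%). In RTT 516 of 943 cells were in S (54.7%, 51.5 to 57.9), 388 in G2/M (41.1%) and 39 in G1 (4.14%). The S share was 8.03 percentage points lower in RTT, with an interval from -17.3 to 2.16 that spans 0, so that a difference in phase was not detectable with 103 NTT cells. The left-out cells, 1 in NTT and 4 in RTT, had fewer than 3000 UMIs. Median depth was alike between phases within each library (18207.5 UMIs in S and 18199 in G2/M for NTT).

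Between the phases called in this way, genes ran from replication in S to mitosis in G2/M cells in both libraries. This is a description, since many of the genes were used to call the phases. The G1/S cyclin Ccne1 measured 37.2 CPM in S and 17.3 CPM in G2/M cells of NTT, and 59.3 and 22.4 CPM in RTT. Mcm6 measured 273 CPM in S and 50.4 CPM in G2/M cells of NTT, and 324 and 78.6 CPM in RTT. The loader Cdc6 had log2 ratios of G2/M over S of -2.47 in NTT and -2.44 in RTT, and the licensing factor Cdt1 of -1.83 and -1.27, so that licensing genes lay on the S side to unequal degrees. Genes of nucleotide supply were near even, as with the thymidylate synthase Tyms (0.16 in NTT, 0.02 in RTT) and the ribonucleotide reductase subunit Rrm2 (-0.10 and 0.17).

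At the other end stood genes of the late cycle. Ccnb2, a mitotic cyclin, measured 11.2 CPM in S and 236 CPM in G2/M cells of NTT, and 18.5 and 311 CPM in RTT. Ube2c, which feeds ubiquitin to the anaphase-promoting complex, measured 19.0 CPM in S and 739.7 CPM in G2/M cells of NTT, and 39.1 and 863 CPM in RTT. The highest ratio in RTT among the plotted genes was that of Ube2c, at 4.46 on the log2 scale. Plk1, a mitotic kinase, reached 6.53 in NTT (4.64 to 9.59) on 2 UMIs in S cells, and 3.77 in RTT. Of the naming markers, Pclaf had the smallest ratio of G2/M over S (1.14 in NTT, 0.84 in RTT) and Mki67 the largest (2.57 and 2.25). The summed level of the spindle, kinetochore and cytokinesis list was 4539 CPM in S and 17627 CPM in G2/M cells of NTT, and 5593 and 19621 CPM in RTT, while that of the origin licensing and replisome list went the other way, from 2320.0 to 799 CPM in NTT and from 2271 to 1056 CPM in RTT.

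**Figure D2:**
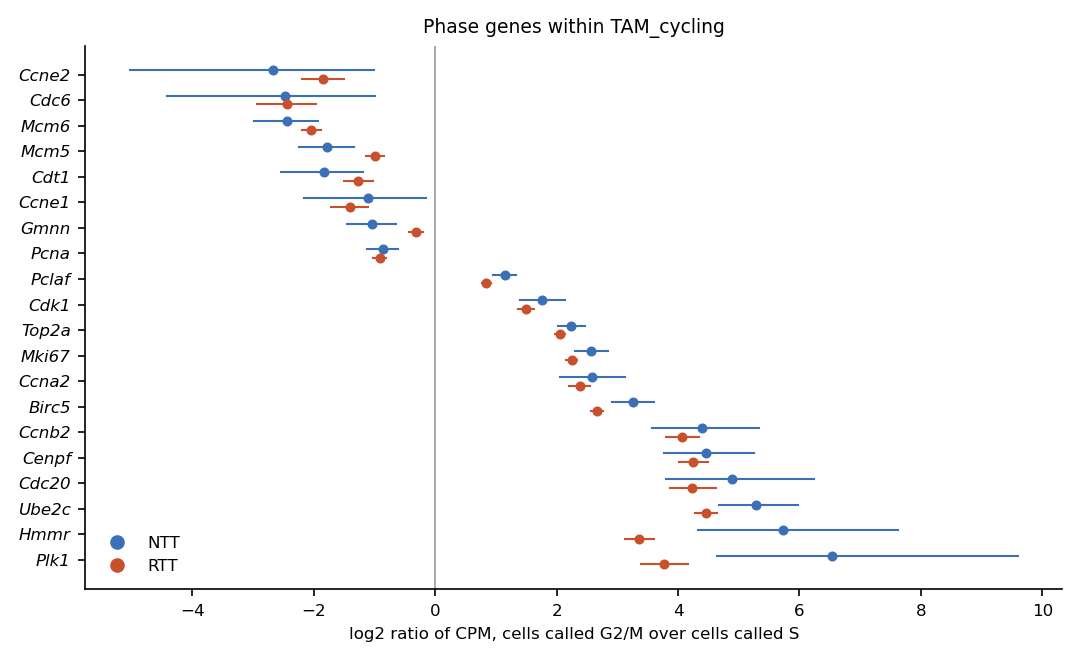
Log2 ratio of CPM in G2/M cells over S cells for 20 cell cycle genes within TAM_cycling, NTT in blue and RTT in orange-red, with exact 95% intervals as bars. Genes of replication start, such as Ccne2 and Cdc6, lie below 0 on the left in both libraries and mitotic genes up to Plk1 above 0 on the right, and the wide NTT bars at the ends come from few UMIs (2 for Plk1 in S cells).

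Regulators of the cycle also differed between the phases. Ccnd1, the growth factor-responsive D cyclin of G1, measured 515 CPM in S and 276 CPM in G2/M cells of NTT, and 521 and 183 CPM in RTT. Ccnd2, another D cyclin, measured 175 CPM in S and 335 CPM in G2/M cells of NTT but 96.5 and 57.2 CPM in RTT, opposite in direction, and 22.9% of its NTT UMIs lay in 1 cell. E2f1, the activating E2F, was lower in G2/M cells of both libraries (log2 -1.91 in NTT and -1.64 in RTT). Foxm1, the factor of the mitotic gene wave, was higher there (2.79 and 2.67). The CDK4/6 inhibitor Cdkn2c (2.05 and 1.95) and the CDK2 inhibitor Cdkn1b (1.09 and 1.19) were also higher in G2/M than in S cells of both libraries.

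Promoters of the markers and of 1 S and 1 G2/M gene are shown because the phase order above is the one these elements are known for. The sequences run 5′ to 3′ from 250 bases before to 50 after the start of the RefSeq gene on GRCm38.p6, with matches in capitals to the CHR (TTTGAA), the CCAAT box (CCAAT) and E2F sites (TTCCCGC or TTGGCGC), all searched on both strands, so that ATTGG also counts as a CCAAT box. That form and the second E2F form share letters and can overlap. The Mki67 window lies at chr7:135716330-135716629 on the minus strand, Top2a at chr11:99024140-99024439 on the minus strand and Cdk1 at chr10:69352863-69353162 on the minus strand. Pclaf lies at chr9:65890073-65890372 on the plus strand, Mcm6 at chr1:128359656-128359955 on the minus strand and Ccnb2 at chr9:70421505-70421804 on the minus strand.
Mki67: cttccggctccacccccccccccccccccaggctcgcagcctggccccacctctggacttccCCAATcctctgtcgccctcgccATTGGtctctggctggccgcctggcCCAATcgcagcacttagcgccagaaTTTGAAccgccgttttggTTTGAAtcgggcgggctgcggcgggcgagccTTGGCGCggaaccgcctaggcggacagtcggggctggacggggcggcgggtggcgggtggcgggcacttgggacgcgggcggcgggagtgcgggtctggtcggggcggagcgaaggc
Top2a: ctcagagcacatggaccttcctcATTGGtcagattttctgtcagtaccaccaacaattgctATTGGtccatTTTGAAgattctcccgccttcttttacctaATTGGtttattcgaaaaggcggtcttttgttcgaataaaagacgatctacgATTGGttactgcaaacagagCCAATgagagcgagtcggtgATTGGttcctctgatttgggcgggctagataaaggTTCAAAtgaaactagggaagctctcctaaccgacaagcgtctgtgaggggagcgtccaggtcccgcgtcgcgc
Cdk1: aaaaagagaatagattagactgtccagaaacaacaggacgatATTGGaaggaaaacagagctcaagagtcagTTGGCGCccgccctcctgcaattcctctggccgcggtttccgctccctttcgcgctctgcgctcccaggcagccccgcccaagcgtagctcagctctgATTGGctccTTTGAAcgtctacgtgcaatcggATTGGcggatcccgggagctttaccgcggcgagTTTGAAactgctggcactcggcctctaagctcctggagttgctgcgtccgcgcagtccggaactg
Pclaf: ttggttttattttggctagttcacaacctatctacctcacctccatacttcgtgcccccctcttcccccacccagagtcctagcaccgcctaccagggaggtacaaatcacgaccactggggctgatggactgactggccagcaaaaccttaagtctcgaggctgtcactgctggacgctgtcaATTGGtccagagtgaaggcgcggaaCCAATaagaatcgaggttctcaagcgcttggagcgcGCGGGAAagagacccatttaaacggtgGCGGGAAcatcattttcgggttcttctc
Mcm6: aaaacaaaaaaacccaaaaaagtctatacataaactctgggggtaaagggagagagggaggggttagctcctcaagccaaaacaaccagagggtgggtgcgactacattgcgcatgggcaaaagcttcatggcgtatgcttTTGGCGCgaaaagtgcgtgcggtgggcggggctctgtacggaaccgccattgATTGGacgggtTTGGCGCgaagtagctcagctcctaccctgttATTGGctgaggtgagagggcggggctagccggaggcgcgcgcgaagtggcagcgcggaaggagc
Ccnb2: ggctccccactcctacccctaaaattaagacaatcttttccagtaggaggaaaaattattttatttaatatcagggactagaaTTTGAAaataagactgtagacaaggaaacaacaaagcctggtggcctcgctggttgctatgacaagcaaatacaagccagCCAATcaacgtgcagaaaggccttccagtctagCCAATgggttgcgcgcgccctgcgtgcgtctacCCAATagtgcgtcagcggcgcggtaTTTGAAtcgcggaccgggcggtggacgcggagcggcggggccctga

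The CHR letters occurred 2 times each in the windows of Mki67, Top2a, Cdk1 and Ccnb2, whose transcripts were all higher in G2/M cells, and 0 times in those of Pclaf and Mcm6. E2F letters occurred 2 times each in Pclaf and Mcm6, 1 time each in Mki67 and Cdk1, and 0 times in Top2a and Ccnb2. The Pclaf transcript was itself higher in G2/M cells, though less so than those of the other markers. Over the G2/M score list, 47 of 56 genes had an entry, with 52 promoters, and 34 of these held the CHR letters (65.4%), against 17.9% of all 32851 promoters in the table. CCAAT was held by 39 of the 52 (75.0%), against 37.4% of all promoters, and E2F letters by 8 (15.4%), against 6.81%. The check is void for the S score list, since only 34 of its 47 genes had an entry in the table, and no share is given for it. A match of letters is no evidence that a factor binds there.

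Set against all other macrophages, TAM_cycling was higher in genes of the dividing programme and in a smaller set outside it. Of 4411 genes with at least 200 UMIs in each library, 120 were at least 2-fold higher in TAM_cycling than in the other macrophages of both libraries (2.72%) and 47 at least 2-fold lower in both (1.07%). Of the 120, 66 were on the cell cycle lists, of which 80 genes were among those measured. All 10 replisome genes and 22 of 23 spindle genes that were measured at this depth were at least 2-fold higher in both libraries, with list medians of log2 2.82 in NTT and 2.55 in RTT for the first and 3.68 and 3.92 for the second. The exception was Pttg1, the securin, which was not higher (-0.44 and -0.17). None of these counts is a test, since the cluster was built from the same genes.

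Among the 54 genes off those lists were further parts of chromosome duplication. The replication-dependent histone Hist1h2ap measured 1125 CPM in NTT and 1419 CPM in RTT TAM_cycling, against 46.2 and 90.5 CPM in the other macrophages, and shares sequence with other histone genes. Ezh2, the methyltransferase of Polycomb, measured 133 CPM in NTT and 169.6 CPM in RTT, against 25.6 and 26.0 CPM. Dnajc9, a histone chaperone, measured 113 CPM in NTT and 136 CPM in RTT, against 13.8 and 23.4 CPM. Of the 47 genes that were lower in both libraries, 5 were on the monocyte list, 3 on that of glycolysis and hypoxia and 3 on that of myeloid chemokines. Chil3, a chitinase-like protein of monocytes, measured 21.1 CPM in NTT and 2.87 CPM in RTT, against 297 and 46.9 CPM in the others, and 82.5% of its NTT UMIs lay in 1 cell. Saa3, an acute-phase protein, measured 1.58 CPM in NTT (3 UMIs) and 1.07 CPM in RTT, against 94.0 and 21.3 CPM. On the monocyte list, 12 of 12 measured genes were lower than in other NTT macrophages and 11 of 12 lower than in other RTT macrophages. This depended on the populations pooled. Against NTT TAM_H2Ab1 alone, 3 of 5 measured monocyte genes were lower and 2 higher (median log2 -0.35). Against RTT TAM_C1q alone, 4 of 9 were lower and 5 higher (median 0.10). Chil3 measured 6.35 CPM in NTT TAM_H2Ab1 and 6.63 CPM in RTT TAM_C1q.

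Which macrophages were dividing differed by library. Each cell was assigned to the non-cycling population whose pooled profile gave its UMIs the highest likelihood, over 12302 genes with cell cycle genes set aside. In NTT 96 of 102 cells were nearest to TAM_H2Ab1 (94.1%, 87.6 to 97.8), the macrophages rich in MHC class II. In RTT 751 of 943 were nearest to TAM_C1q (79.6%, 76.9 to 82.2), the complement-rich macrophages, 144 to TAM_Spp1 (15.3%), 22 to TAM_H2Ab1 (2.33%), 15 to the dendritic cell population cDC2 (1.59%) and 7 to Ctsk_Macro. The naming populations were themselves split by library, with 2001 of 2018 TAM_C1q cells in RTT and 169 of 205 TAM_H2Ab1 cells in NTT, so nearest population and library cannot be told apart. Profiles built from the same library alone gave 95.1% TAM_H2Ab1 in NTT and 77.8% TAM_C1q in RTT. Populations with fewer than 50 cells in that library had no profile there. In NTT these were TAM_C1q (17 cells) and Ctsk_Macro (0 cells), and in RTT TAM_H2Ab1 (36 cells) and Macro (26 cells). The same-library values therefore cannot tell TAM_H2Ab1 from TAM_C1q in either library.

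The assignment was checked on cells held out of the profiles. It returned the deposited name for 79 of 81 NTT TAM_H2Ab1 cells (97.5%), 921 of 978 RTT TAM_C1q cells (94.2%) and 275 of 315 RTT TAM_Spp1 cells (87.3%). It did so for only 15 of 91 NTT TAM_Spp1 cells (16.5%) and 1 of 9 NTT TAM_C1q cells (11.1%), so the TAM_Spp1 and TAM_C1q parts of the NTT values are not known. Pooled profiles, as log2(CPM + 10), had a correlation over 8611 genes of 0.968 between NTT TAM_cycling and NTT TAM_H2Ab1, and of 0.975 between RTT TAM_cycling and RTT TAM_C1q, against 0.936 between the TAM_cycling cells of both libraries. These correlations are across genes, which are not independent replicates, and profiles of 1 library share its depth and its background RNA.

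**Figure D3:**
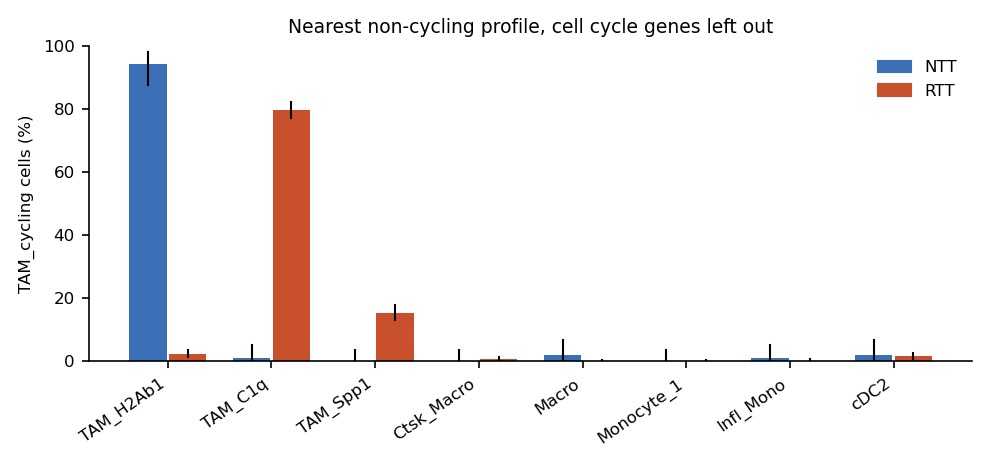
Percent of TAM_cycling cells of each library by the nearest non-cycling population, NTT in blue and RTT in orange-red, with Clopper-Pearson 95% intervals as lines. NTT cells were nearest to TAM_H2Ab1 (94.1%) and RTT cells to TAM_C1q (79.6%) and TAM_Spp1 (15.3%).

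Within RTT, the nearest groups differed in more than the genes of their name, although all genes but those of the cycle took part in the assignment. The 751 cells nearest to TAM_C1q measured 886 CPM of the MHC class II chain gene H2-Ab1, 12784 CPM of the lipid carrier Apoe and 1329 CPM of the mannose receptor Mrc1. The 144 cells nearest to TAM_Spp1 measured 8864 CPM of H2-Ab1, 5649.5 CPM of Apoe and 469 CPM of Mrc1, and their Spp1 level was the lower of the 2 groups (1467 CPM against 2321 CPM). Of these 144 cells, 71 were called S and 72 G2/M (interval of the G2/M share 41.6 to 58.4%), against 39.0% G2/M (35.5 to 42.6) of the 751. The 22 cells nearest to TAM_H2Ab1 held the interferon-induced Isg15 at 574 CPM, against 52.1 CPM in the TAM_C1q-nearest cells. The 15 cells nearest to cDC2 held 15651 CPM of H2-Ab1 and 212 CPM of Apoe.

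All dividing cells of a library were also set against the population nearest to most of them, TAM_H2Ab1 in NTT (96 of 102 assigned cells) and TAM_C1q in RTT (751 of 943). The RTT sums thus include cells nearest to other populations, and their part in the values was not tested. These comparisons were chosen after the assignment was known. Against NTT TAM_H2Ab1, 133 of 3292 genes were at least 2-fold higher in NTT TAM_cycling (4.04%) and 33 at least 2-fold lower (1%), and 65 of the 133 were on the cell cycle lists. Against RTT TAM_C1q, 499 of 8176 genes were at least 2-fold higher in RTT TAM_cycling (6.1%), 160 of them on the cell cycle lists, and 32 at least 2-fold lower (0.391%). Macrophage core genes had a median log2 ratio of -0.24 in NTT, with 12 of 12 lower, and -0.37 in RTT, with 13 of 13 lower. Median values over all genes were 0.04 and 0.03, so the core genes sat slightly below the level of the compared population in both libraries. The receptor of the macrophage growth factor CSF1, Csf1r, measured 399 CPM in NTT and 786 CPM in RTT TAM_cycling. Lyz2, the lysozyme of myeloid cells, measured 1161 CPM in NTT TAM_cycling against 1549 CPM in NTT TAM_H2Ab1, and 6281 CPM in RTT TAM_cycling against 7375 CPM in RTT TAM_C1q.

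Other groups differed by library. Interferon-stimulated genes were lower in NTT TAM_cycling than in NTT TAM_H2Ab1 for 34 of 34 genes (median log2 -0.85), 13 of them at least 2-fold, and split evenly between RTT TAM_cycling and RTT TAM_C1q, with 16 of 34 higher and 18 lower (median -0.09). Isg15 measured 281 CPM in NTT TAM_cycling against 863 CPM in NTT TAM_H2Ab1, and 71.2 CPM in RTT TAM_cycling against 77.8 CPM in RTT TAM_C1q. MHC class II genes were lower in NTT for 7 of 7 (median -0.73) and higher in RTT for 8 of 8 (median 1.09), where the TAM_C1q-nearest cells alone were at 886 CPM of H2-Ab1 against 1155 CPM in TAM_C1q. The 144 RTT cells nearest to TAM_Spp1 stood at 8864 CPM. Genes of glycolysis and hypoxia were lower in both libraries, 13 of 14 in NTT (median -0.22) and 18 of 19 in RTT (median -0.60), while oxidative phosphorylation genes were slightly higher for 15 of 15 (0.14) and 13 of 16 (0.08). The 144 RTT cells nearest to TAM_Spp1 were set against TAM_Spp1 itself in the same way, and 214 of 4300 genes were at least 2-fold higher (4.98%) and 118 at least 2-fold lower (2.74%). Lower in them were 12 of 12 monocyte genes (median -1.44) and 18 of 18 genes of glycolysis and hypoxia (median -0.93), while MHC class II genes had a median of -0.02 and macrophage core genes one of -0.07 (6 of 12 higher, 6 lower).

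**Figure D4:**
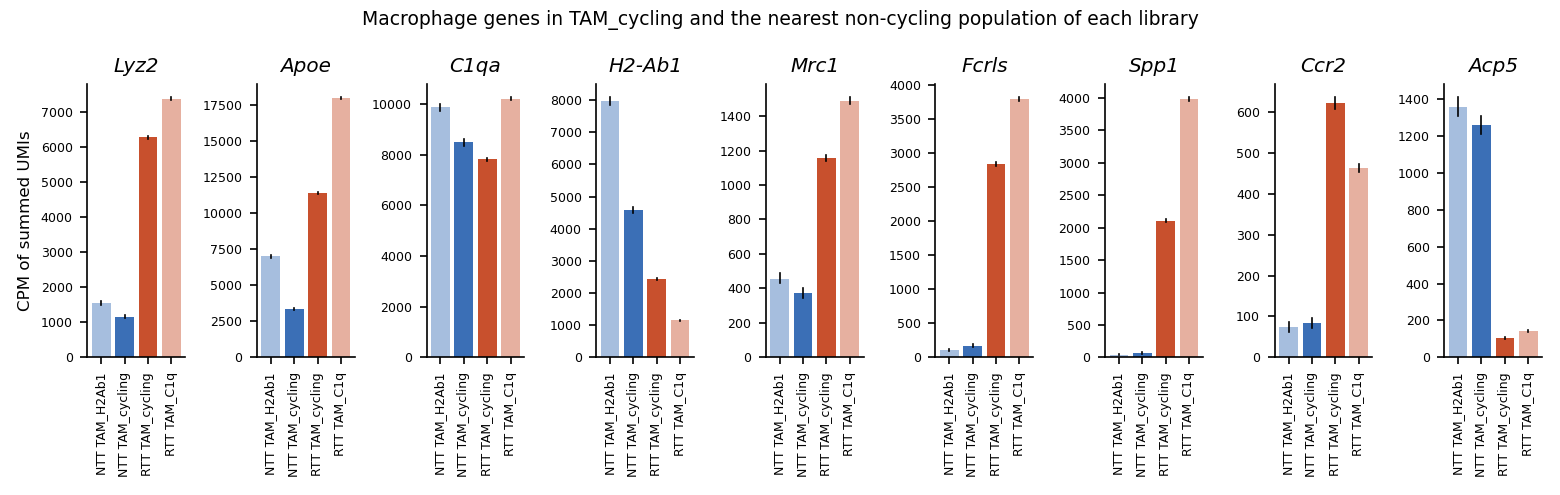
CPM of 9 macrophage genes in NTT TAM_H2Ab1, NTT TAM_cycling, RTT TAM_cycling and RTT TAM_C1q, as bars from 0 with exact 95% Poisson intervals, the non-cycling populations in pale shades. For Fcrls and Spp1 the TAM_cycling bar of each library lies closer to that of its own nearest population than to the bars of the other library, as with Fcrls at 174 and 114 CPM in NTT and at 2847 and 3792 CPM in RTT. H2-Ab1 and C1qa go the other way in NTT. Their NTT TAM_cycling bars (4580 and 8495 CPM) lie closer to RTT TAM_cycling than to NTT TAM_H2Ab1 (7958 and 9879 CPM).

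RTT and NTT TAM_cycling cells differed in identity genes. Of 9088 genes whose UMIs over both libraries numbered at least 50, a filter that a gene could pass through 1 library alone, 582 were at least 2-fold higher in RTT (6.4%) and 492 at least 2-fold lower (5.41%). On the list of C1q and scavenger macrophage genes 10 of 18 were at least 2-fold higher in RTT and 2 at least 2-fold lower (median log2 1.19). Fcrls, a Fc receptor-like gene of tissue macrophages, measured 174 CPM in NTT and 2847 CPM in RTT (log2 4.03, 3.87 to 4.19). Stab1, a scavenger receptor, measured 29.0 CPM in NTT and 494 CPM in RTT (4.09, 3.71 to 4.50). The complement chain C1qa was alike, at 8495 CPM in NTT and 7820.4 CPM in RTT (-0.12), so the list moved without its namesake. Trem2, a lipid receptor, measured 66.4 CPM in NTT and 769 CPM in RTT (3.53), whereas Abcg1, a cholesterol exporter, measured 259.7 CPM in NTT and 48.8 CPM in RTT (-2.41). Lipid-associated genes had a median of 0.38, with 6 of 16 at least 2-fold higher and 1 at least 2-fold lower. The median of the C1q and scavenger list was 0.37 in the other macrophages.

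Genes of antigen presentation and of the interferon response were lower in RTT. All 8 MHC class II genes were lower (median log2 -0.82; -1.06 in the other macrophages), among them H2-Ab1, at 4580.1 CPM in NTT and 2440.2 CPM in RTT. All 10 MHC class I genes were lower as well (median -1.29; -1.28 in the others), 7 of them at least 2-fold, with B2m, the class I light chain, at 4934 CPM in NTT and 1831 CPM in RTT. All 40 interferon-stimulated genes were lower (median -1.68; -2.26 in the others), 31 of them at least 2-fold. Irf7, the regulator of the interferon response, measured 257 CPM in NTT and 42.8 CPM in RTT. Cxcl9, a chemokine for T cells, measured 365 CPM in NTT and 93.8 CPM in RTT. The dividing macrophages thus shared these differences with the non-dividing ones.

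Cell cycle genes differed little between the libraries. The median log2 ratio of RTT over NTT was 0.02 for 18 replisome genes (9 higher, 9 lower), 0.30 for 23 genes of DNA synthesis, 0.14 for 14 of chromatin assembly, 0.19 for 29 cyclins and kinases, 0.13 for 13 E2F, MYB and FOXM1 regulators and 0.42 for 49 of spindle and cytokinesis (43 higher, 6 lower), against 0.07 for all genes. Of the 49 spindle genes 2 were at least 2-fold higher in RTT and 0 at least 2-fold lower. Nusap1, a spindle protein, measured 103 CPM in NTT and 223 CPM in RTT (1.12, 0.91 to 1.33), and Cenpm, a kinetochore protein, 31.1 and 73.3 CPM (1.24). Pbk, a mitotic kinase, measured 39.5 CPM in NTT and 116 CPM in RTT (1.55, 1.21 to 1.90), and Ccne2, an S phase cyclin, 18.4 and 41.9 CPM (1.18). Lower in RTT were the helicase subunit Mcm2, at 137 CPM in NTT and 84.9 CPM in RTT (-0.70), and Ccnd2, at 233 and 81.7 CPM (-1.51). The G2/M share of cells was 6.83 points higher in RTT (-3.29 to 15.9), and its part in the spindle median was not tested.

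Genes that restrain the cycle or mark maturation were higher in RTT in 16 of 22 measured cases, 6 of them at least 2-fold (median log2 0.49; -0.31 in the other macrophages). Klf4, a factor of monocyte and macrophage maturation, measured 6.85 CPM in NTT and 44.0 CPM in RTT (2.68, 1.90 to 3.60). Maf, a factor that restrains macrophage self-renewal, measured 252 CPM in NTT and 620.0 CPM in RTT (1.30). The CDK inhibitor Cdkn1a measured 55.8 CPM in NTT and 113 CPM in RTT (1.02). In each library Cdkn1a lay below its level in other macrophages, with log2 ratios of -2.42 in NTT and -0.58 in RTT. For Maf the values were -1.54 in NTT and 0.06 in RTT. Against NTT TAM_H2Ab1 alone, the log2 ratio of Cdkn1a was -0.85 and the list median -0.24. Against RTT TAM_C1q alone, the list median was -0.23, so the list stood alike against the nearest population of each library.

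**Figure D5:**
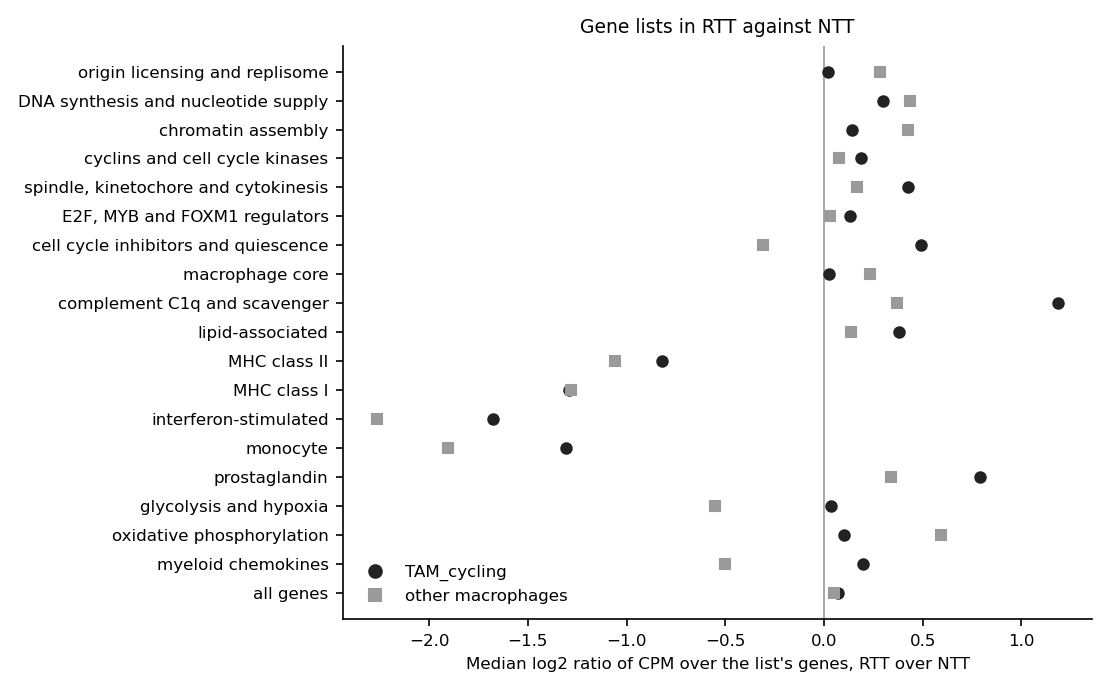
Median log2 ratio of RTT over NTT for the cell cycle, macrophage and function lists, black circles for TAM_cycling and grey squares for the other macrophages. Among the lists drawn, which leave out those of other lineages, interferon-stimulated genes lie lowest in both (-1.68 and -2.26), while the cell cycle lists lie between 0.02 and 0.49 in TAM_cycling, with all genes at 0.07.

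Growth factor receptors, metabolism and secreted signals made a mixed picture. Colony-stimulating factor and growth receptor genes had a median of -0.06 (7 of 15 higher in RTT), glycolysis and hypoxia genes 0.03 (10 of 19 higher) and oxidative phosphorylation genes 0.10 (11 of 16 higher). Within the glycolysis and hypoxia list Ndrg1, a hypoxia-induced gene, measured 175 CPM in NTT and 35.5 CPM in RTT (-2.30). Prostaglandin genes, which the study follows in the tumour cells, were higher in RTT for 10 of 11 (median 0.79; 0.34 in the other macrophages), 4 of them at least 2-fold. Ptgs1, a cyclooxygenase, measured 19.0 CPM in NTT and 52.2 CPM in RTT (1.46, 0.98 to 1.99). Ptgs2, the inducible cyclooxygenase, measured 10.5 CPM in NTT, with 55.0% of its UMIs in 1 cell, and 11.2 CPM in RTT (0.08, -0.60 to 0.84), so no difference was detectable. Of 15 myeloid chemokines 8 were higher and 7 lower (median 0.20), with Ccl2, which draws monocytes, at 943 CPM in NTT and 1145 CPM in RTT and Ccl4 at 1312 and 213 CPM.

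Some differences between the libraries had no counterpart in the other macrophages when these were pooled. On the monocyte list 3 of 11 genes were at least 2-fold higher in RTT TAM_cycling and 6 at least 2-fold lower (median -1.31), against 0 and 9 in the other macrophages (median -1.91). Ccr2, the receptor by which monocytes leave the marrow, measured 83.2 CPM in NTT and 620.5 CPM in RTT TAM_cycling (2.90), against 802 and 591 CPM in the other macrophages (-0.44). Fn1, fibronectin, measured 57.4 CPM in NTT and 793 CPM in RTT TAM_cycling (3.79), against 869 and 1162 CPM in the others (0.42). Cd14, the lipopolysaccharide co-receptor, measured 27.9 CPM in NTT and 209 CPM in RTT TAM_cycling (2.90), against 597 and 292 CPM in the others (-1.03). In NTT the low values were those of TAM_H2Ab1 too, at 73.9 CPM of Ccr2, 38.5 CPM of Cd14 and 26.3 CPM of Fn1. RTT TAM_C1q held 462 CPM of Ccr2, 259 CPM of Cd14 and 1349 CPM of Fn1. The nearest populations of the libraries thus differed in the same direction as TAM_cycling for these genes. Osteoclast genes could be measured for 6 of 13 list members, with a median of -0.35 in TAM_cycling and 1.95 in the other macrophages. The pooled sets behind the second value differed in make-up, with 280 Ctsk_Macro cells in RTT and 0 in NTT. In RTT these cells held 96454 of the 99813 UMIs of the list gene Acp5 in the other macrophages. The 2 medians are therefore not comparable as a change within macrophages.

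The genes with the largest differences were ranked in each direction. Genes needed at least 200 UMIs over both libraries together, a filter that a gene could pass through 1 library alone. The 10 highest ratios in RTT were those of Asns, Pdpn, Spp1, Ctla2a, Htra3, Tnip3, Rapsn, Gpr183, Cbr2 and Gas7, with log2 ratios from 4.42 to 5.69. Their NTT sums were small, at 2 UMIs for Ctla2a and Tnip3, 3 for Htra3, 4 for Pdpn and Gas7 and 5 for Rapsn. The order among such genes is therefore uncertain. Spp1, the secreted matrix protein osteopontin, measured 63.7 CPM in NTT and 2109.8 CPM in RTT (5.05, 4.79 to 5.32). Asns, the asparagine synthetase of the amino acid stress response, had 2 UMIs in NTT and 54.5 CPM in RTT (5.69, 3.83 to 8.74). Gpr183, a receptor for oxysterols, measured 6.32 CPM in NTT and 146 CPM in RTT. Each of the 10 lowest was also detected in NTT TAM_H2Ab1. Fcrl5 measured 179 CPM there, Tmem26 115 CPM, Cd300e 254 CPM, Mmp13 357 CPM, Fpr2 136 CPM, Plac8 126 CPM and Ighm 93.4 CPM. Igkc (8 UMIs) and Mzb1 (2 UMIs) were near the floor in that population. Dnase1l3, a secreted nuclease, measured 168 CPM in NTT and 1.40 CPM in RTT TAM_cycling, against 302 CPM in NTT TAM_H2Ab1 and 1.04 CPM in RTT TAM_C1q. Acp5, an acid phosphatase, measured 1257 CPM in NTT and 103 CPM in RTT TAM_cycling, while RTT Ctsk_Macro cells held 23710.4 CPM.

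Part of the NTT values came from few cells with genes of other lineages. A single NTT cell of 27819 UMIs held 3862 of 3866 Igkc UMIs, 2473 of 2638 Ighm UMIs and 222 of 222 Mzb1 UMIs of the population, all genes of antibody-producing cells, with 1 UMI of C1qa. Igkc had 0 UMIs in RTT TAM_cycling, and the ratios of Igkc, Ighm and Mzb1, all among the 10 lowest, describe that cell. By a rule on the markers of other lineages, 24 of 103 NTT cells (18 of them for neutrophil genes) and 13 of 947 RTT cells (10 for dendritic cell genes) held such transcripts, and the part of these cells in single values was not tested beyond leaving them out. The 9 neutrophil genes measured summed to 203 CPM in NTT and 27.1 CPM in RTT TAM_cycling, the 10 dendritic cell genes to 112 and 42.9 CPM, and the 12 T and NK cell genes to 32.1 and 7.96 CPM, with 3 and 4 of the last at 0 UMIs. Without them the spindle median rose from 0.42 to 0.59, the interferon median was -1.61 and the counts at 200 UMIs were 394 higher and 277 lower, against 328 (4.78%) and 298 (4.34%) with them.

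Dividing cells were also found outside the cluster. After thinning, 99 of 102 NTT (97.1%) and 904 of 943 RTT TAM_cycling cells (95.9%) were called S or G2/M. Among other macrophages the share was 7.88% of 444 in NTT and 10.1% of 2933 in RTT, where it was 6.63% without thinning. It was highest in RTT Ctsk_Macro, at 18.5% (51 of 276), and in NTT TAM_H2Ab1 it was 14.4% (24 of 167). The RTT TAM_C1q share was 8.85% (174 of 1965) and that of RTT TAM_Spp1 9.62% (61 of 634). These calls rest on scores that free RNA of dividing cells can raise, and its part in these shares was not tested. By transcripts, TAM_cycling held 84.4% of the Mki67 UMIs of the RTT library but 46.4% of those of the NTT library, where the population named NK_cells held 30.8%.

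As a share of macrophages, TAM_cycling was 103 of 582 in NTT (17.7%, 14.7 to 21.0) and 947 of 4009 in RTT (23.6%, 22.3 to 25.0). The difference was 5.92 percentage points (2.37 to 9.11), and 9.22 points without the cells that held genes of another lineage. Over all CD45+ cells the difference was wider, at 16.1 points (14.8 to 17.4), and macrophages as a whole were 582 of 2975 cells in NTT and 4009 of 4840 in RTT. Since 1 tumour stands behind each share, neither interval speaks to tumours in general.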

How the data were processed

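Live CD45+ cells of 1 NTT and 1 RTT tumour were analysed. The authors made 3′ droplet libraries, ran Cell Ranger 6.1.1 against mm10, restricted the genes to those that several experiments had in common, including a probe-based one, and left out ribosomal and mitochondrial ones. The deposited values are raw UMI counts for 12584 genes, which were used as they stand. The authors' 16 population names, taken here as given, came from clusters of a map integrated with another melanoma model after the difference of S and G2/M scores had been regressed out.

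UMIs were summed per gene over cells of a population and scaled to CPM. Ratios carry exact 95% binomial intervals, CPM exact Poisson intervals, shares Clopper-Pearson intervals and differences of shares Newcombe intervals. A sum of 0 UMIs was set to a floor of 3 UMIs per sum and its ratio is a bound. Genes with at least 200 UMIs, or 50 UMIs for lists, were described, and a difference was counted from 2-fold. Cells are not replicates and there was 1 library per group, so no test was made and no p-value is given. Phases were scored in scanpy 1.11.5 on cells thinned to 3000 UMIs. For the nearest population, the multinomial likelihood of each thinned cell was taken under profiles of populations with at least 50 cells, with 0.5 UMIs added per gene. Other macrophages were TAM_C1q, TAM_H2Ab1, TAM_Spp1, Ctsk_Macro and Macro.

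The members and gene lists were chosen with earlier results of these data known. Named genes were list members described by role, the 4 markers, the 10 highest and 10 lowest in RTT, the 10 outside the cycle lists highest and lowest in both libraries against other macrophages, and the 5 in each direction whose ratio differed most from that of other macrophages. Scrublet marked 0.168% of NTT and 0.0620% of RTT cells, too few to have worked, so doublets were not removed, and leaving out the top 10% of its scores was added as an alternative. Scalings by edgeR 4.0.16 (TMM) and DESeq2 1.42.0 (size factors) were alternatives. Hmgb2, Ccnb1 and Ly6c2 were not analysed here, and the single values of 2 list genes are not reported here. Software was numpy 2.4.6, pandas 2.3.3 and scipy 1.17.1 under Python 3.11.15, and R 4.3.3, and the calculations were tested on simulated data.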

Additional observations from a re-analysis of the deposited data

Results flagged for a closer look

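Among 510 genes of the lists and of the named genes, 15 lay on opposite sides of the other macrophages in the 2 libraries, each by at least 0.5 on the log2 scale and with an interval clear of 0 in both. The difference between the libraries was not tested, with 1 library each. Values are log2 ratios of TAM_cycling over the other macrophages, NTT first and then RTT. Higher in NTT and lower in RTT were S100a8 (1.01 and -3.01), Igkc (9.02 and -1.26), Acp5 (0.70 and -5.15), Ccl3 (1.08 and -0.61), Nfatc1 (0.67 and -1.65), Tmem26 (0.69 and -1.53), Chchd10 (0.70 and -2.25) and Ccl5 (0.78 and -1.73). Lower in NTT and higher in RTT were Ccng2 (-1.85 and 0.88), Hpgd (-2.07 and 1.02), Rsad2 (-1.39 and 0.67), Cmpk2 (-1.49 and 0.84), Ifit2 (-1.61 and 0.95), Ifit3 (-1.39 and 0.50) and Rapsn (-1.79 and 0.68). The top NTT cell for each gene held 99.9% of its NTT TAM_cycling UMIs for Igkc, 77.4% for Ccl5 and 54.9% for S100a8. These top cells need not be the same cell. In RTT, 32.3% of the TAM_cycling UMIs of Ifit3 lay in 1 cell. Acp5, Nfatc1 and Chchd10 are lower in RTT TAM_cycling than in a set that holds Ctsk_Macro, at 23710.4 CPM of Acp5.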

How the results depend on the processing

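Among the medians, shares and counts, these left the range of their intervals or passed 1.5 times the first count. Without cells holding genes of another lineage, the difference in the share of macrophages was 9.22 points, the spindle median 0.59 and the G2/M score median 0.49. With no minimum count 764 genes were higher and 907 lower in RTT, and with at least 500 UMIs 182 were higher and 182 lower. With at least 50 UMIs in each library 337 genes were higher and 99 lower in TAM_cycling than in other macrophages of both libraries. Without thinning, 6.63% of RTT other macrophages were called cycling. Turned in direction were Ccl5 in RTT over NTT, at 0.72 without other-lineage cells and 0.68 without the top 10% of Scrublet scores, Chil3 (0.75) and Psip1 (-0.024) in S cells only, and Hat1 (0.060) in G2/M cells only. Over other macrophages, Ccl5 (-1.54) and Igkc (-2.37) in NTT turned without other-lineage cells, and Ccr2 in RTT (-0.19) as a mean of per-cell CPM. Values of single genes moved without turning for 41 as a mean of per-cell CPM, 24 without other-lineage cells, 19 in G2/M cells only, 13 in S cells only, 5 with TMM factors and fewer under other settings. The causes were not tested. No list median or count moved with TMM factors. The counts of genes higher and lower in RTT did not move with DESeq2 size factors, under which list medians were not computed. No paired analysis was possible because each group held 1 library, and leaving out a library was not possible for the same reason. The depth of NTT, with 103 cells, limits genes under about 50 UMIs.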
